A study of Caenorhabditis elegans with 4 samples.

Results

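The nuclei described here are intestine-like nuclei of adult Caenorhabditis elegans that held few transcripts of ribosomal protein genes. They were selected on measured values. A nucleus was taken when fewer than 15% of its UMIs (unique molecular identifiers, each counted as 1 captured RNA molecule) fell on the 81 genes for cytosolic ribosomal proteins, and when at least 4 of 16 marker genes of the intestine had a UMI. This rule selected 1182 of 52147 nuclei (2.27%). The markers and the ribosomal protein genes are therefore given below as a description of the selection and not as findings about it.

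Single-nucleus RNA-seq was performed on whole day 1 adults under 4 conditions that differ in the equilibrative nucleoside transporters ENT-1 and ENT-2. In ent-1KO;ent-2KD, worms with a knockout of ent-1 ate HT115 bacteria of the ent-2 RNAi clone, which lowers ent-2 by feeding. The ent-1KO and the ent-2KO worms were fed HT115 carrying the empty vector L4440, and ctrl was the wild-type strain N2 on the same L4440 bacteria. Thus ent-1KO;ent-2KD and ent-1KO share the knockout and differ in the RNAi food. Each condition is 1 library, prepared from many pooled worms whose nuclei were sorted by Hoechst staining and size through a gate that kept the large polyploid nuclei of the gut. With 1 library per condition, the variation between cultures cannot be estimated, no test between conditions was possible, and all intervals below are 95% intervals that cover counting error only.

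The intestine of C. elegans is a tube of large polyploid cells that digests bacteria, stores fat, takes up metals, detoxifies foreign compounds and secretes yolk for the oocytes. Equilibrative nucleoside transporters let nucleosides pass membranes along their gradient. Nucleotides come from these salvaged nucleosides or from synthesis de novo, which leads to inosine monophosphate in the case of purines.

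By condition, 589 of 13121 nuclei (4.49%, interval 4.14 to 4.86) were selected in ent-1KO;ent-2KD, 236 of 14935 (1.58%, 1.39 to 1.79) in ent-1KO, 190 of 12425 (1.53%, 1.32 to 1.76) in ent-2KO and 167 of 11666 (1.43%, 1.22 to 1.66) in ctrl. The ent-1KO;ent-2KD share lay above the other 3, whose intervals overlap. The libraries also differed in depth, with a median of 1871 UMIs per nucleus in ent-1KO;ent-2KD, 1758 in ent-1KO, 1709 in ent-2KO and 1414 in ctrl over all nuclei. When every nucleus was thinned to 500 UMIs before its markers were counted, the shares were 1.35% in ent-1KO;ent-2KD, 0.629% in ent-1KO, 0.571% in ent-2KO and 0.686% in ctrl. The order of ent-1KO;ent-2KD above the rest was thus kept at equal depth, while the order of the other 3 was not. The selected nuclei themselves had median depths of 3597 UMIs in ent-1KO;ent-2KD, 2232 in ent-1KO, 2210 in ent-2KO and 1810 in ctrl. No barcode of a selected nucleus occurred in more than 1 library.

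The selection was least secure at its edge. Levels are given in CPM, a gene's part of all UMIs on a scale on which 5000 CPM is 0.5%. Among nuclei with exactly 4 markers, the 16 markers made up 1328 CPM in ent-1KO;ent-2KD, 4026 in ent-1KO, 2828 in ent-2KO and 5349 in ctrl. In the same nuclei the list of hypodermal (skin) genes stood at 14413 CPM in ent-1KO;ent-2KD, 6634 in ent-1KO, 5182 in ent-2KO and 5632 in ctrl. The ent-1KO;ent-2KD nuclei at this edge therefore held a hypodermal level close to that of the nuclei with fewer than 4 markers in the same library, which was 14562 CPM. Among nuclei with 8 to 16 markers the hypodermal list was at 4666 CPM in ent-1KO;ent-2KD, 3390 in ent-1KO, 3408 in ent-2KO and 3817 in ctrl. For this reason a subset was formed after the data had been seen, the marker-dense nuclei, in which the 16 markers reach 5000 CPM of the nucleus. It holds 754 nuclei, with 307 (2.34%, interval 2.09 to 2.61) in ent-1KO;ent-2KD, 184 (1.23%, 1.06 to 1.42) in ent-1KO, 138 (1.11%, 0.934 to 1.31) in ent-2KO and 125 (1.07%, 0.893 to 1.28) in ctrl. The nuclei left out by it were 47.9% of the selected ones in ent-1KO;ent-2KD, 22.03% in ent-1KO, 27.4% in ent-2KO and 25.1% in ctrl. The hypodermal level of the ent-1KO;ent-2KD nuclei at the edge goes against calling the whole selection intestine, so the name intestine-like is used for the selection and the main results are also given for the marker-dense nuclei.

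**Figure D1:**
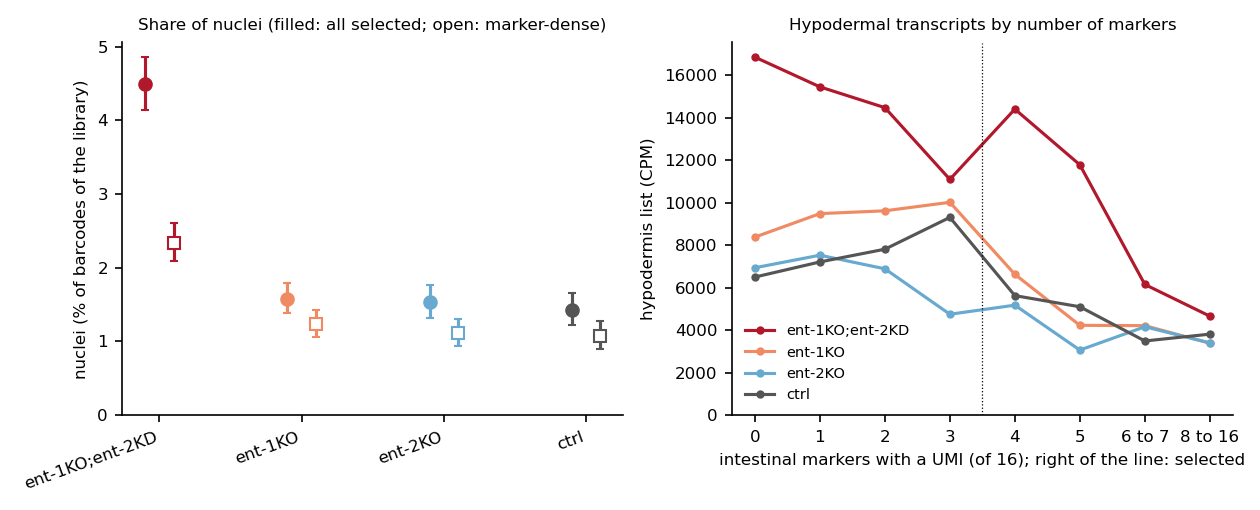
Left, the share of nuclei (percent of a library) that met the rule (filled) and that were marker-dense (open), with exact 95% binomial bars. Right, the summed level (CPM) of the hypodermal list against the number of markers with a UMI in nuclei under the ribosomal limit, with a line between 3 and 4 markers, where the ent-1KO;ent-2KD nuclei with 4 markers stand at 14413 CPM and those of the other libraries at 5182 to 6634.

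Around the limits of the rule, 69 nuclei of ent-1KO;ent-2KD, 14 of ent-1KO, 6 of ent-2KO and 9 of ctrl lay just inside the ribosomal limit (13 to 15%), and 41 of ent-1KO;ent-2KD, 11 of ent-1KO, 9 of ent-2KO and 5 of ctrl just outside it (15 to 17%). Exactly 4 markers were seen in 204 nuclei of ent-1KO;ent-2KD, 67 of ent-1KO, 56 of ent-2KO and 49 of ctrl, and exactly 3 in 578 of ent-1KO;ent-2KD, 186 of ent-1KO, 111 of ent-2KO and 121 of ctrl. More nuclei thus had exactly 3 or 4 markers than lay in these windows of the ribosomal limit. The windows are of unlike width, so this does not rank the 2 limits. At a ribosomal limit of 10%, 393 of the 589 selected nuclei of ent-1KO;ent-2KD were left.

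Of the 16 markers, 7 are textbook genes of the intestine (elt-2, ges-1, vha-6, ifb-2, act-5, pept-1 and nhx-2) and 9 were chosen because they led in these data (ugt-44, math-27, clec-84, oac-6, M04C3.1, W04B5.3, R10E8.7, C52D10.3 and Y75B8A.28). Summed over both kinds, the selected nuclei held 8029 CPM in ent-1KO;ent-2KD, 13403 in ent-1KO, 7116 in ent-2KO and 11314 in ctrl. Nuclei with fewer than 4 markers held 541 CPM in ent-1KO;ent-2KD, 307 in ent-1KO, 214 in ent-2KO and 297 in ctrl. In the marker-dense nuclei the sum was 17053 CPM in ent-1KO;ent-2KD, 17770 in ent-1KO, 13304 in ent-2KO and 18718 in ctrl, a level that the 5000 CPM limit itself sets in part.

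The textbook markers were sparse. elt-2, the GATA factor that maintains intestinal identity, had a UMI in 5.26% of selected nuclei in ent-1KO;ent-2KD, 5.93% in ent-1KO, 7.37% in ent-2KO and 4.79% in ctrl, against 0.409 to 0.860% of the nuclei with fewer than 4 markers, whose median depth was 1411 to 1825 UMIs. vha-6, a subunit of the proton pump of the gut lumen, was seen in 60.4% in ent-1KO;ent-2KD, 48.7% in ent-1KO, 42.1% in ent-2KO and 46.7% in ctrl, and in 6.55 to 18.1% of the nuclei with fewer markers. W04B5.3, a marker drawn from these data, was seen in 76.1% in ent-1KO;ent-2KD, 74.2% in ent-1KO, 82.1% in ent-2KO and 67.1% in ctrl. A nucleus was thus identified by abundant gut transcripts far more often than by the gut regulator itself.

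**Figure D2:**
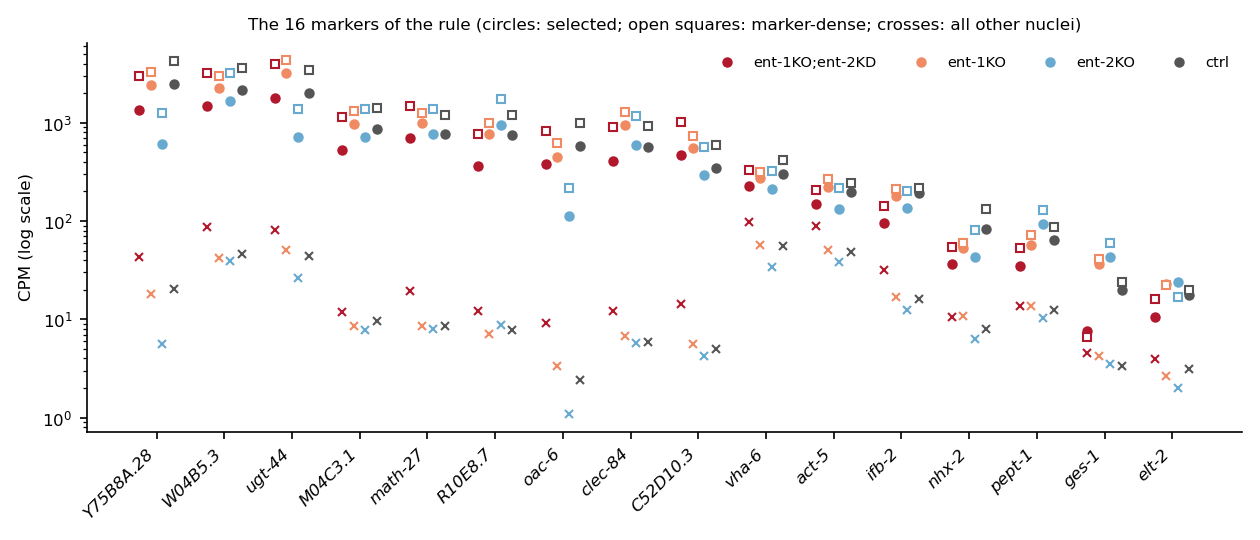
Level (CPM, log axis) of the 16 markers in the selected nuclei (circles), the marker-dense nuclei (open squares) and the nuclei with fewer than 4 markers (crosses), for each of the 4 libraries. The summed markers reach 7116 to 13403 CPM in the selected nuclei and 214 to 541 CPM in the nuclei with fewer markers.

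Lists outside the rule were read next. Yolk proteins, which the intestine makes and secretes, summed to 17636 CPM in the marker-dense nuclei of ent-1KO;ent-2KD, 22468 in ent-1KO, 20921 in ent-2KO and 21521 in ctrl. In nuclei with fewer than 4 markers they summed to 10425 CPM in ent-1KO;ent-2KD, 6638 in ent-1KO, 4197 in ent-2KO and 6232 in ctrl, and several yolk genes are near-identical copies between which reads may be shared. Yolk transcripts were therefore common in the nuclei with fewer than 4 markers as well. That set can include gut nuclei, since vha-6 had a UMI in 6.55 to 18.1% of it. The coelomocyte list was low, at 19.3 CPM in the marker-dense nuclei of ent-1KO;ent-2KD, 24.2 in ent-1KO, 43.6 in ent-2KO and 67.7 in ctrl. Relative to the nuclei with fewer markers that was 0.716 times in ent-1KO;ent-2KD, 2.18 times in ent-1KO, 8.69 times in ent-2KO and 16.53 times in ctrl. The marker-dense sums rest on 13 UMIs in ent-1KO, 13 in ent-2KO and 17 in ctrl. In each of these libraries 1 of the 3 list genes was detected in the marker-dense nuclei, so the multiples do not describe the list as a whole. The part of coelomocyte transcripts in the results below was not tested. Germline transcripts stood at 2251 CPM in the marker-dense nuclei of ent-1KO;ent-2KD, 3127 in ent-1KO, 3395 in ent-2KO and 3420 in ctrl. In nuclei with fewer markers the same list stood at 5050 CPM in ent-1KO;ent-2KD, 9575 in ent-1KO, 9750 in ent-2KO and 8716 in ctrl. Body wall muscle transcripts were at 1702 CPM in the marker-dense nuclei of ent-1KO;ent-2KD, 1148 in ent-1KO, 1806 in ent-2KO and 1780 in ctrl. If all germline transcripts were free RNA in the droplets, free RNA would make up at most 91.7% of the UMIs of the selected nuclei in ent-1KO;ent-2KD, 48.2% in ent-1KO, 69.1% in ent-2KO and 65.4% in ctrl, and its true share was not tested.

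The genes that stood out most from the nuclei with fewer than 4 markers, apart from the rule, were members of the MATH-domain family and genes with no assigned role. math-26 measured 481 CPM in ent-1KO;ent-2KD, 626 in ent-1KO, 593 in ent-2KO and 468 in ctrl, and 7.75 to 18.6 CPM in the nuclei with fewer markers. C23H5.8 measured 2558 CPM in ent-1KO;ent-2KD, 3843 in ent-1KO, 3223 in ent-2KO and 2507 in ctrl, and 76.3 to 165 CPM in the nuclei with fewer markers. ugt-17, a UDP-glucuronosyltransferase of the detoxification system, measured 340 CPM in ent-1KO;ent-2KD, 673 in ent-1KO, 683 in ent-2KO and 521 in ctrl, and 8.34 to 17.8 CPM outside. These 3 genes were far above the other nuclei in each library. Genes on the X chromosome, which is largely silent in the germline, took 11.7% of UMIs in marker-dense nuclei of ent-1KO;ent-2KD, 11.9% in ent-1KO, 11.2% in ent-2KO and 11.5% in ctrl. In nuclei with fewer markers they took 9.49% in ent-1KO;ent-2KD, 7.08% in ent-1KO, 6.55% in ent-2KO and 6.62% in ctrl.

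The nuclei most like the selected ones were the 408 that met the marker limit and held 15% or more of ribosomal protein UMIs. They numbered 319 in ent-1KO;ent-2KD, 43 in ent-1KO, 22 in ent-2KO and 24 in ctrl, with 20.4 to 26.5% of their UMIs on ribosomal protein genes. That share was 7.11% in the selected nuclei of ent-1KO;ent-2KD, 6.66% in ent-1KO, 6.17% in ent-2KO and 6.12% in ctrl. The ribosomal-rich nuclei also held more yolk transcripts than the marker-dense nuclei in each library, at 24212 to 29821 CPM beside 17636 to 22468. The same held for the 7 textbook markers, at 1302 to 2105 CPM beside 813 to 1147. Of 5168 genes with a mean of at least 50 CPM, 197 (3.81%) were at least 2-fold higher in the selected nuclei in all 4 libraries and 81 (1.57%) at least 2-fold lower. The genes on the higher side were long, with a median span in the genome of 5101 bp, and those on the lower side were short, with a median of 1118 bp, beside 3251 bp for all 5168. Of the lower genes 18.5% lay on the X chromosome, of the higher genes 3.55%, and of all genes 8.11%. Because the rule splits the nuclei by ribosomal transcripts, these differences describe the split.

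Named genes of this contrast had distinct roles. mnk-1, a MAP kinase-interacting kinase, measured 1670 CPM in the selected nuclei and 523 in the ribosomal-rich nuclei of ent-1KO;ent-2KD, with 1845 and 101 in ent-1KO, 1378 and 444 in ent-2KO, and 2033 and 413 in ctrl. nhr-41, a nuclear hormone receptor, measured 451 and 120 CPM in ent-1KO;ent-2KD, 531 and 34 in ent-1KO, 262 and 70 in ent-2KO, and 363 and 43 in ctrl. On the lower side stood spp-14, a saposin-like protein, with 387 and 1522 CPM in ent-1KO;ent-2KD, 493 and 1970 in ent-1KO, 196 and 771 in ent-2KO, and 214 and 803 in ctrl. The mitochondrially encoded nduo-6 measured 149 and 750 CPM in ent-1KO;ent-2KD, 167 and 1078 in ent-1KO, 132 and 654 in ent-2KO, and 149 and 1064 in ctrl. A kinase and a nuclear receptor were thus on the side of the selected nuclei, and a saposin-like protein and a mitochondrial transcript on the side of the ribosomal-rich ones.

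Conditions were compared on UMIs summed over the selected nuclei of a library. A gene was measured in a comparison when it had at least 50 UMIs in both libraries together and 20 CPM in 1 of them. It was counted as higher or lower when its CPM differed at least 2-fold (1 on the log2 scale, with 0.5 UMIs added) and the counting interval of the ratio excluded equality. The comparisons share libraries, ctrl in 3 of them and ent-1KO;ent-2KD or ent-1KO in the others, so they are not independent of each other.

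The transporters themselves were examined first. ent-1 measured 11.31 CPM in ent-1KO;ent-2KD (40 UMIs), 13.4 in ent-1KO (10 UMIs), 94.8 in ent-2KO (59 UMIs) and 80.2 in ctrl (36 UMIs). It was low in both libraries that carry the ent-1 knockout, and its log2 ratio of ent-1KO;ent-2KD to ctrl was -2.83 (interval -3.51 to -2.13). ent-2 measured 13.3 CPM in ent-1KO;ent-2KD (47 UMIs), 34.8 in ent-1KO (26 UMIs), 14.5 in ent-2KO (9 UMIs) and 28.9 in ctrl (13 UMIs). ent-2 was thus low in ent-1KO;ent-2KD, with a log2 ratio of -1.40 against ent-1KO and of -1.16 (-2.03 to -0.11) against ctrl. In ent-2KO its 9 UMIs beside 13 in ctrl were too few for a measured gene. The selected nuclei therefore cannot decide whether ent-2 was lower in ent-2KO than in ctrl. In the nuclei with fewer markers it was lower in ent-2KO than in ctrl, with a log2 ratio of -1.50. The 2 genes lie on chromosome IV (11653417 to 11655470, minus strand, WBGene00001320) and on chromosome X (15601067 to 15603686, plus strand, WBGene00010701) of WBcel235, and reads may be shared between these similar genes. Tags read at the 3′ end can also come from a deleted gene whose end is still transcribed. Of the other family members, ent-7 measured 14.1 CPM in ent-1KO;ent-2KD, 34.8 in ent-1KO, 14.5 in ent-2KO and 40.1 in ctrl, which is a log2 ratio of -1.53 in ent-1KO;ent-2KD against ctrl. ent-3 measured 25.7 CPM in ent-1KO;ent-2KD, 2.68 in ent-1KO, 0 in ent-2KO and 6.68 in ctrl, where it had 3 UMIs (1.73, 0.35 to 4.25), and ent-6 lay between 63.0 and 86.8 CPM in all 4 libraries. In the marker-dense nuclei ent-3 had 11 UMIs in ent-1KO;ent-2KD and 0 in ctrl, too few for a measured gene. Of the 7 family members 1 was measured there in ent-1KO;ent-2KD against ctrl, and it did not pass the fold rule. The family ratios to ctrl above therefore hold for the whole selection only.

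In ent-1KO;ent-2KD against ctrl, 8166 genes were measured in the selected nuclei, of which 859 (10.5%) were higher and 474 (5.8%) lower. In the marker-dense nuclei 5775 were measured, of which 441 (7.64%) were higher and 315 (5.45%) lower. Among genes higher in the selected nuclei, 385 were also measured in the marker-dense nuclei and 265 of these were higher there too, while 153 of 261 lower genes were lower there too. None had the opposite direction. The marker-dense nuclei are part of the selected nuclei, so the same UMIs enter both ratios. Agreement between these sets, here and in the comparisons below, is therefore largely built in and is no independent check. Of the genes higher in both sets, 162 of 265 (61.1%) were also higher in the nuclei with fewer than 4 markers, and 62 of 153 genes (40.5%) lower in both sets were also lower there, while 6 of the 153 were higher there. Some of these genes were not measured there, and over all 7967 genes measured in the nuclei with fewer markers 1523 were higher and 1088 lower. Genes with a UMI in all 4 libraries were also set against the widest ratio among ent-1KO, ent-2KO and ctrl. Of the 859 higher genes 562 had such UMIs and exceeded that ratio, and of the 474 lower genes 405 did. A gene without a UMI in some library was not counted, whatever its ratio, so these counts are minimums.

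The genes furthest above ctrl included a dehydrogenase and a glucuronosyltransferase, and for both the single mutants stayed close to ctrl. T22B7.7 had 768 UMIs in 290 selected nuclei of ent-1KO;ent-2KD, 1 in ent-1KO, 3 in ent-2KO and 0 in ctrl, which is at least 32.5-fold higher in ent-1KO;ent-2KD than a floor of 3 UMIs over the ctrl nuclei. dhs-26, a short-chain dehydrogenase, measured 141 CPM in ent-1KO;ent-2KD, 4.02 in ent-1KO, 3.21 in ent-2KO and 2.23 in ctrl, where it rests on 1 UMI (log2 ratio to ctrl 5.40, interval 3.5 to 11.29). The UDP-glucuronosyltransferase ugt-41 measured 635 CPM in ent-1KO;ent-2KD, 59.0 in ent-1KO, 49.8 in ent-2KO and 33.4 in ctrl (4.20, 3.52 to 5.09), which is 18.4-fold higher in ent-1KO;ent-2KD than in ctrl. T22B7.7 was likewise near 0 in the single mutants. ugt-41 was seen in 325 nuclei of ent-1KO;ent-2KD, so that it did not rest on a few nuclei, and in the marker-dense nuclei its levels were 869 CPM in ent-1KO;ent-2KD, 70.6 in ent-1KO, 46.9 in ent-2KO and 39.8 in ctrl. Its ratio in the nuclei with fewer markers was 2.93, and that of dhs-26 was 5.83.

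ftn-1, the iron-storage protein ferritin of the intestine, measured 65.6 CPM in ent-1KO;ent-2KD, 20.1 in ent-1KO, 32.1 in ent-2KO and 4.45 in ctrl, with 2 UMIs in ctrl (log2 ratio to ctrl 3.56, 2.01 to 6.94). It ran higher in the marker-dense nuclei, at 129 CPM in ent-1KO;ent-2KD, 24.2 in ent-1KO, 53.6 in ent-2KO and 3.98 in ctrl. The desaturase fat-5 measured 43.6 CPM in ent-1KO;ent-2KD, 14.7 in ent-1KO, 17.7 in ent-2KO and 8.91 in ctrl (2.12, and 2.57 in the marker-dense nuclei). Both genes were thus at or above ctrl in each of the 3 mutant libraries. The aspartyl protease asp-14 measured 281 CPM in ent-1KO;ent-2KD, 202 in ent-1KO, 85.2 in ent-2KO and 66.8 in ctrl (2.05, and 2.2 in the marker-dense nuclei). The lysozyme lys-2 measured 232 CPM in ent-1KO;ent-2KD, 197 in ent-1KO, 41.8 in ent-2KO and 89.1 in ctrl (1.36, and 1.61 in the marker-dense nuclei). mxl-3, a bHLH repressor of fat breakdown genes, measured 193 CPM in ent-1KO;ent-2KD, 150 in ent-1KO, 98.1 in ent-2KO and 69.0 in ctrl (1.46, and 1.40 in the marker-dense nuclei). These last 3 genes were high in both libraries that carry the ent-1 knockout.

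Other genes far above ctrl had smaller ratios in the marker-dense nuclei. vap-2, a secreted protein of the venom allergen-like family, measured 115 CPM in ent-1KO;ent-2KD, 6.70 in ent-1KO, 8.04 in ent-2KO and 2.23 in ctrl, and catp-3, a P-type ATPase, measured 161 CPM in ent-1KO;ent-2KD, 32.2 in ent-1KO, 27.3 in ent-2KO and 6.68 in ctrl. The ratio of vap-2 to ctrl was 5.10 in the selected nuclei and 2.97 in the marker-dense nuclei, and that of catp-3 was 4.37 and 3.25. The ctrl level of catp-3, 6.68 CPM, equals 3 UMIs over the selected ctrl nuclei, and that of vap-2 was lower still. Whether these ratios on few ctrl UMIs differ between the sets was not tested. The cuticle collagens col-175, col-77 and col-130, which the hypodermis makes, had ratios of 4.62, 4.39 and 4.00 in the selected nuclei. Of 7 hypodermal list genes measured, 5 were higher in the selected nuclei of ent-1KO;ent-2KD than of ctrl (10.5% over all genes), and of 4 measured in the marker-dense nuclei none was. The summed hypodermal list stood at 8625 CPM in the selected nuclei of ent-1KO;ent-2KD, 4380 in ent-1KO, 4088 in ent-2KO and 4326 in ctrl. The muscle list stood at 3683 CPM in ent-1KO;ent-2KD, 1207 in ent-1KO, 2778 in ent-2KO and 1893 in ctrl. In the marker-dense nuclei the hypodermal list was at 4344 CPM in ent-1KO;ent-2KD, 3926 in ent-1KO, 4139 in ent-2KO and 3810 in ctrl, so the excess of the whole selection was not seen there.

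The genes below ctrl included several that the selected nuclei expressed far above the nuclei with fewer markers. fbl-1, which encodes the matrix protein fibulin, measured 31.7 CPM in ent-1KO;ent-2KD, 186 in ent-1KO, 154 in ent-2KO and 163 in ctrl (log2 ratio to ctrl -2.36, -2.80 to -1.91). Among marker-dense nuclei it measured 58.4 CPM in ent-1KO;ent-2KD, 245 in ent-1KO, 268 in ent-2KO and 243 in ctrl (-2.06). The single mutants were level with ctrl, and in the nuclei with fewer markers the ratio was 0.24. pgp-1, an ABC transporter of the P-glycoprotein family, measured 7.35 CPM in ent-1KO;ent-2KD, 12.1 in ent-1KO, 20.9 in ent-2KO and 69.0 in ctrl (-3.23), with a ratio of -2.79 in the marker-dense nuclei. lys-4, a lysozyme, measured 125 CPM in ent-1KO;ent-2KD, 453 in ent-1KO, 175 in ent-2KO and 432 in ctrl (-1.79, -2.04 to -1.54). It was therefore low in both libraries in which ent-2 was targeted. Among marker-dense nuclei lys-4 measured 223 CPM in ent-1KO;ent-2KD, 572 in ent-1KO, 285 in ent-2KO and 685 in ctrl. T05E12.6, one of the leading genes of these nuclei, measured 535 CPM in ent-1KO;ent-2KD, 1822 in ent-1KO, 1458 in ent-2KO and 1430 in ctrl (-1.42), with -1.04 in the marker-dense nuclei and 0.34 in the nuclei with fewer markers.

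The noncoding RNA C05D9.12 (chromosome X, 1107079 to 1107207) was the largest loss among the named genes of this comparison. It measured 28 CPM in ent-1KO;ent-2KD, 910 in ent-1KO, 825 in ent-2KO and 839 in ctrl (log2 ratio to ctrl -4.90, -5.24 to -4.58). The loss was also seen in the nuclei with fewer markers, with a ratio of -5.52. zipt-2.3, a zinc importer of the ZIP family, measured 13 CPM in ent-1KO;ent-2KD, 36.2 in ent-1KO, 33.8 in ent-2KO and 44.5 in ctrl (-1.80, and -1.41 in the marker-dense nuclei). eps-8, a protein of the microvilli, measured 143 CPM in ent-1KO;ent-2KD, 320 in ent-1KO, 244 in ent-2KO and 323 in ctrl (-1.18, and -1.10 in the marker-dense nuclei). nhx-2, the sodium-proton exchanger of the gut lumen and a marker of the rule, measured 36.8 CPM in ent-1KO;ent-2KD, 53.6 in ent-1KO, 43.4 in ent-2KO and 82.4 in ctrl (-1.18, and -1.28 in the marker-dense nuclei). Of 13 brush border and junction genes measured in the selected nuclei, ifd-2 and eps-8 were lower and none was higher. In the marker-dense nuclei eps-8 alone of 13 was lower. Over all measured genes 5.8% and 5.45% were lower.

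**Figure D3:**
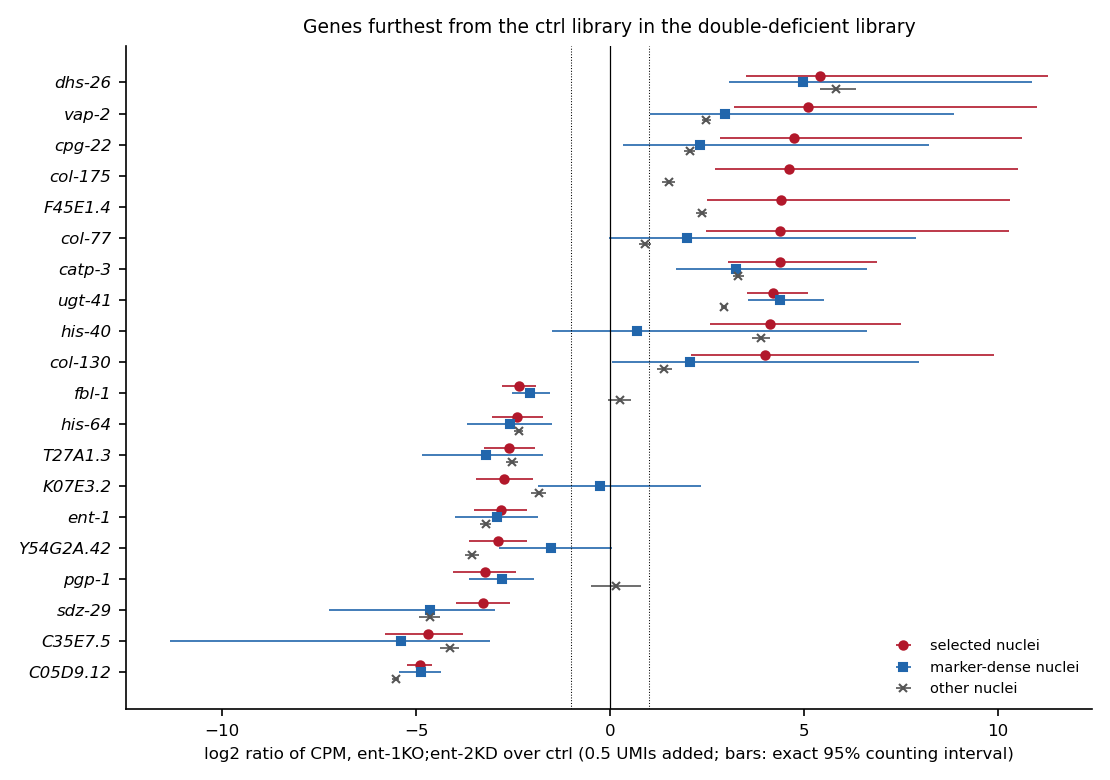
Log2 ratio of ent-1KO;ent-2KD to ctrl for the 10 highest and 10 lowest genes chosen by rule, with 95% counting intervals, in the selected nuclei, the marker-dense nuclei and the nuclei with fewer than 4 markers. ugt-41 stands at 4.20, 4.38 and 2.93 in the 3 sets, and fbl-1 at -2.36, -2.06 and 0.24.

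By gene list, 7 of 33 measured UDP-glucuronosyltransferases were higher and 2 lower in the selected nuclei, and 7 of 28 were higher and none lower in the marker-dense nuclei, where 10.5% and 7.64% of all measured genes were higher. The median log2 ratio of the list was 0.36 in the selected and 0.50 in the marker-dense nuclei. ugt-28 measured 91.1 CPM in ent-1KO;ent-2KD, 32.2 in ent-1KO, 53.0 in ent-2KO and 26.7 in ctrl, and was higher in both sets. Among 16 digestive and lysosomal proteases, asp-14 was higher, and the cathepsins cpr-1, cpr-3, cpr-5 and cpl-1 were lower in the selected nuclei, where 5.8% of all measured genes were lower. cpl-1, cathepsin L, measured 684 CPM in ent-1KO;ent-2KD, 1574 in ent-1KO, 1318 in ent-2KO and 1398 in ctrl (-1.03), but -0.69 in the marker-dense nuclei, where of these cathepsins cpr-3 alone was lower. Of 6 yolk proteins none passed the fold rule in either set, with medians of -0.40 and -0.37. The medians of all measured genes were close to 0, at -0.04 in the selected nuclei. Among 25 genes of lipid metabolism fat-5 was higher and daf-22, a peroxisomal thiolase, lower, with a list median of 0.20.

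The 17 genes of purine synthesis and salvage bear on the nucleosides that the missing transporters carry. All 17 were measured in ent-1KO;ent-2KD against ctrl, 1 was higher, none was lower, and the median log2 ratio was -0.07 beside -0.04 for all genes. The gene on the higher side was adah-1, an adenosine deaminase-related gene, with 143 CPM in ent-1KO;ent-2KD, 64.3 in ent-1KO, 57.9 in ent-2KO and 46.8 in ctrl (1.58, 0.99 to 2.32). The 7 genes of synthesis de novo had a median of -0.36 in the selected and -0.17 in the marker-dense nuclei. atic-1, which catalyses the last steps to inosine monophosphate, measured 251 CPM in ent-1KO;ent-2KD, 555 in ent-1KO, 481 in ent-2KO and 492 in ctrl (-0.97, just short of the 2-fold limit). Among marker-dense nuclei it measured 480 CPM in ent-1KO;ent-2KD, 732 in ent-1KO, 922 in ent-2KO and 824 in ctrl (-0.78). In the nuclei with fewer markers it measured 61.4 CPM in ent-1KO;ent-2KD, 16.9 in ent-1KO, 18.7 in ent-2KO and 21.1 in ctrl, a ratio of the opposite sign (1.54). pfas-1, an earlier enzyme of the same route, measured 231 CPM in ent-1KO;ent-2KD, 485 in ent-1KO, 293 in ent-2KO and 347 in ctrl (-0.59). ampd-1, AMP deaminase, measured 90.3 CPM in the marker-dense nuclei of ent-1KO;ent-2KD, 154 in ent-1KO, 231 in ent-2KO and 227 in ctrl, which made it the 1 lower gene of the list there (-1.34), beside adah-1 as the 1 higher gene (1.23). The median of the list lay near that of all genes under this rule, but at 0.35 when nuclei were chosen by at least 2 of the 7 textbook markers.

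The genes of purine synthesis de novo stood higher in the marker-dense nuclei than elsewhere in each library. They summed to 1441 CPM in the marker-dense nuclei of ent-1KO;ent-2KD, 1884 in ent-1KO, 1994 in ent-2KO and 1875 in ctrl. In the nuclei with fewer markers they summed to 441 CPM in ent-1KO;ent-2KD, 423 in ent-1KO, 419 in ent-2KO and 441 in ctrl. The 10 genes of salvage and interconversion did not share this in ent-1KO;ent-2KD. There their summed level in the marker-dense nuclei was 0.935 times that in the nuclei with fewer markers, beside 1.71 times in ent-1KO, 1.93 times in ent-2KO and 1.74 times in ctrl. In the marker-dense nuclei they summed to 939 CPM in ent-1KO;ent-2KD, 1108 in ent-1KO, 1146 in ent-2KO and 1059 in ctrl. In the nuclei with fewer markers they summed to 1004, 648, 594 and 608 CPM in the same order. The low multiple in ent-1KO;ent-2KD thus went mainly with a higher level in the nuclei with fewer markers. In ent-1KO against ctrl none of 16 measured purine genes passed the fold rule (median 0.26), nor did any of 16 in ent-2KO against ctrl (median -0.02).

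In ent-1KO against ctrl, 165 of 5202 measured genes (3.17%) were higher and 92 (1.77%) lower in the selected nuclei, and 113 (3.42%) higher and 71 (2.15%) lower of 3301 in the marker-dense nuclei. Of genes measured in both sets, 74 were higher in both and 20 lower in both. In the nuclei with fewer markers 4 of the 74 and 0 of the 20 passed the fold rule in the same direction. A further 28 and 12 were measured there without passing it, and the rest were not measured. Over all 7097 genes measured in the nuclei with fewer markers, 23 were higher and 39 lower.

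The genes furthest above ctrl in ent-1KO were T10C6.15, of no assigned role here, and F17C11.12. T10C6.15 measured 20.6 CPM in ent-1KO;ent-2KD, 100 in ent-1KO, 17.7 in ent-2KO and 6.68 in ctrl, where it had 3 UMIs (log2 ratio of ent-1KO to ctrl 3.70, 2.31 to 6.22). It stood out in ent-1KO alone, also in the marker-dense nuclei, at 43.8 CPM in ent-1KO;ent-2KD, 136 in ent-1KO, 30.2 in ent-2KO and 11.9 in ctrl. The glucuronosyltransferase ugt-43 measured 29.7 CPM in ent-1KO;ent-2KD, 75.03 in ent-1KO, 12.9 in ent-2KO and 13.4 in ctrl (2.39, and 1.99 in the marker-dense nuclei). vit-1, a yolk protein, measured 1655 CPM in ent-1KO;ent-2KD, 3400 in ent-1KO, 1408 in ent-2KO and 1581 in ctrl (1.10, 0.98 to 1.23, and 1.10 in the marker-dense nuclei). vit-1 was the 1 of 6 yolk proteins past the fold rule, and its ratio was 1.03 in the nuclei with fewer markers. Among 11 lysozymes and saposin-like proteins, lys-2, lys-8 and spp-14 were higher (3.17% over all genes), and spp-14 was higher in the marker-dense nuclei too (1.20 and 1.11). Among 19 lipid genes the stearoyl-CoA desaturase fat-6 was higher, at 1061 CPM in ent-1KO;ent-2KD, 1482 in ent-1KO, 1032 in ent-2KO and 701 in ctrl (1.08), but not past the fold rule in the marker-dense nuclei (0.78).

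On the lower side, acdh-2, an acyl-CoA dehydrogenase, measured 124 CPM in ent-1KO;ent-2KD, 57.6 in ent-1KO, 88.4 in ent-2KO and 285 in ctrl. It was below ctrl in each mutant library, with log2 ratios to ctrl of -1.21 in ent-1KO;ent-2KD, -2.3 in ent-1KO and -1.68 in ent-2KO. C09B8.4 measured 31.4 CPM in ent-1KO;ent-2KD, 36.2 in ent-1KO, 6.43 in ent-2KO and 136 in ctrl, and was likewise below ctrl, with log2 ratios of -2.12 in ent-1KO;ent-2KD, -1.89 in ent-1KO and -4.24 in ent-2KO. Such a gene low in all 3 mutant libraries rests on the same ctrl library each time. Of 9 muscle genes measured, the giant sarcomere proteins unc-89 and ttn-1 were lower in ent-1KO, where the muscle list was at 1207 CPM beside 1893 in ctrl.

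In ent-2KO against ctrl, 103 of 4985 measured genes (2.07%) were higher and 2.45% lower in the selected nuclei, and of 2426 in the marker-dense nuclei 94 (3.87%) were higher and 4.37% lower. Of genes measured in both sets, 43 of 44 were higher in both and 68 of 93 lower in both. In the nuclei with fewer markers 8 of the 43 and 4 of the 68 passed the fold rule as well. A further 10 and 24 were measured there without passing it, and the rest were not measured. Over all 7071 genes measured in the nuclei with fewer markers, 61 were higher and 29 lower.

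nspg-8, of a nematode-specific peptide family, measured 46.1 CPM in ent-1KO;ent-2KD, 49.6 in ent-1KO, 206 in ent-2KO and 35.6 in ctrl (log2 ratio of ent-2KO to ctrl 2.49, 1.78 to 3.38). crp-1, a small GTPase of the Cdc42 family, measured 35.9 CPM in ent-1KO;ent-2KD, 59.0 in ent-1KO, 118.9 in ent-2KO and 22.3 in ctrl (2.36, 1.46 to 3.54). The ratios in the marker-dense nuclei were 2.57 and 2.95, and in the nuclei with fewer markers -0.13 and 0.18. Both were thus highest in ent-2KO in the selected nuclei, while the ratios in the nuclei with fewer markers were near 0.

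The lower genes of ent-2KO included 3 of the markers that chose the nuclei, so their values are a description. oac-6, an acyltransferase-like gene, measured 383 CPM in ent-1KO;ent-2KD, 450 in ent-1KO, 113 in ent-2KO and 574 in ctrl (-2.34). Y75B8A.28 measured 1336 CPM in ent-1KO;ent-2KD, 2406 in ent-1KO, 612 in ent-2KO and 2456 in ctrl (-2.0), and ugt-44 measured 1793 CPM in ent-1KO;ent-2KD, 3229 in ent-1KO, 714 in ent-2KO and 2000 in ctrl (-1.49). In the marker-dense nuclei their ratios were -2.20, -1.77 and -1.30. ugt-44 had a UMI in 43.2% of the selected nuclei of ent-2KO, beside 71.9% in ctrl, and Y75B8A.28 in 18.9% beside 58.7%. Both the level and the share rest on genes of the rule, and the share follows the level at these depths. Outside the markers, ttm-1, a zinc exporter, measured 345 CPM in ent-1KO;ent-2KD, 505 in ent-1KO, 257 in ent-2KO and 612 in ctrl (-1.25, and -1.04 in the marker-dense nuclei). lys-4 was lower as well (-1.30, -1.65 to -0.96). T23F11.6, a gene of no assigned role here, measured 52 CPM in ent-1KO;ent-2KD, 76.4 in ent-1KO, 12.9 in ent-2KO and 107 in ctrl (-2.98, and -2.73 in the marker-dense nuclei). The lectin clec-66 had no UMI in ent-2KO and 17 in ctrl, which is at least 7.85-fold lower when 3 UMIs are taken as the floor over the ent-2KO nuclei. Of 10 genes of the brush border and junctions, the intermediate filament genes ifd-2 and ifo-1 and the kinase pkc-3 were lower, in both sets (2.45% and 4.37% over all genes).

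**Figure D4:**
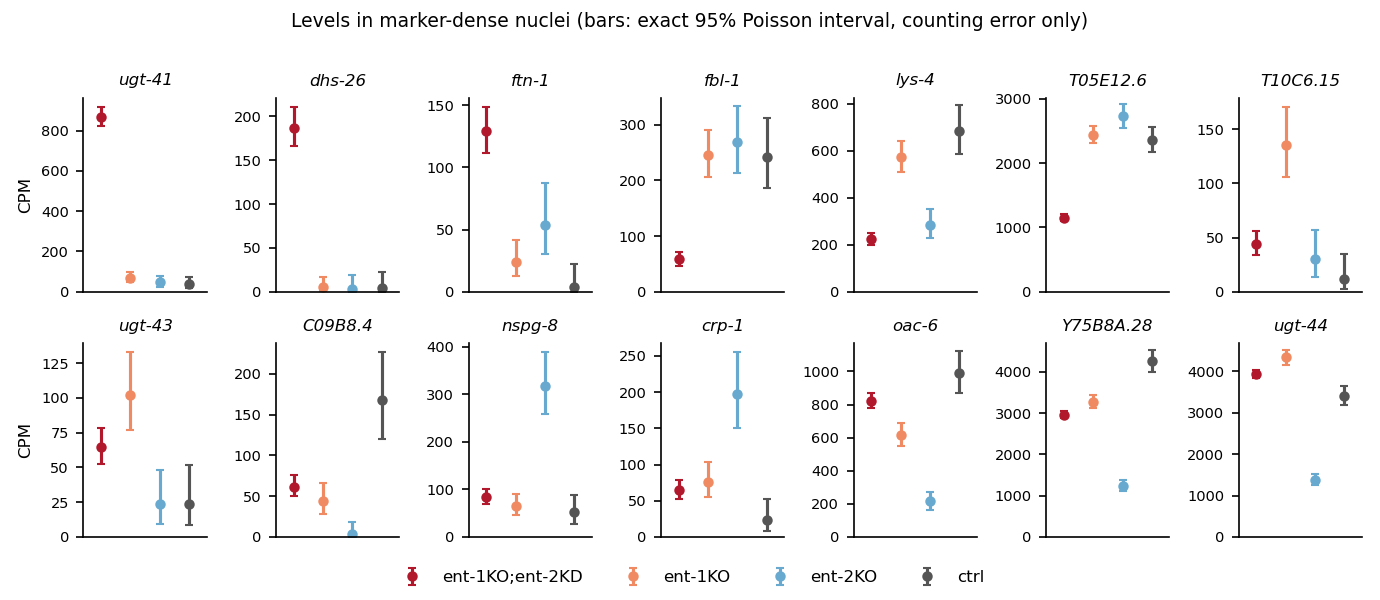
Level (CPM) of 14 genes in the marker-dense nuclei of the 4 libraries, with exact 95% Poisson bars. ugt-41 stands at 869 CPM in ent-1KO;ent-2KD beside 39.8 in ctrl, T10C6.15 at 136 CPM in ent-1KO beside 11.9 in ctrl, and nspg-8 at 318 CPM in ent-2KO beside 51.8 in ctrl.

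The comparison of ent-1KO;ent-2KD with ent-1KO sets 2 libraries against each other that both carry the ent-1 knockout and differ in the food. Of 8219 measured genes 980 (11.9%) were higher and 591 (7.19%) lower in the selected nuclei, and of 6322 in the marker-dense nuclei 360 (5.69%) were higher and 303 (4.79%) lower. Of genes measured in both sets, 224 of 359 were higher in both and 181 of 435 lower in both. In the nuclei with fewer markers 155 of the 224 (69.2%) and 69 of the 181 (38.1%) passed the fold rule in the same direction. Of the 181, 7 passed it in the opposite direction. Some of these genes were not measured there, and over all 8017 genes measured there 1571 were higher and 1219 lower. Hypodermal, neuronal and pharyngeal lists had 4 of 7, 7 of 10 and 3 of 3 measured genes higher in the selected nuclei, and neurons 1 of 4 in the marker-dense nuclei.

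On the lower side stood acox-1.3, a peroxisomal acyl-CoA oxidase, with 6.79 CPM in ent-1KO;ent-2KD, 83.1 in ent-1KO, 53.0 in ent-2KO and 53.4 in ctrl (log2 ratio to ent-1KO -3.60, and -3.20 in the marker-dense nuclei). F21C10.9 measured 8.77 CPM in ent-1KO;ent-2KD, 73.7 in ent-1KO, 88.4 in ent-2KO and 42.3 in ctrl (-3.06, and -2.74 in the marker-dense nuclei), and C29F7.2 measured 13.9 CPM in ent-1KO;ent-2KD, 110 in ent-1KO, 64.3 in ent-2KO and 69.0 in ctrl (-2.98, and -2.44 in the marker-dense nuclei). All 3 were lower in ent-1KO;ent-2KD than in each of the other libraries. On the higher side, prdh-1, proline dehydrogenase, measured 67.9 CPM in ent-1KO;ent-2KD, 1.34 in ent-1KO, 16.08 in ent-2KO and 11.13 in ctrl (5.08, and 3.56 in the marker-dense nuclei), with 1 UMI in ent-1KO in either set. linc-82, a long noncoding RNA, measured 145 CPM in ent-1KO;ent-2KD, 4.02 in ent-1KO, 6.43 in ent-2KO and 53.4 in ctrl (4.95), and was at least 7.86-fold higher in the marker-dense nuclei of ent-1KO;ent-2KD than a floor of 3 UMIs over those of ent-1KO, which held none. In the purine list, pfas-1 (-1.07), atic-1 (-1.14) and the nucleoside phosphorylase pnp-1 (-1.34) were lower and adah-1 (1.14) higher in the selected nuclei, whereas none passed the fold rule in the marker-dense nuclei. pnp-1 measured 110 CPM in ent-1KO;ent-2KD, 279 in ent-1KO, 154 in ent-2KO and 171 in ctrl. Of 19 intestinal transcription factors, elt-7, pqm-1, sbp-1, ceh-60 and unc-62 were lower in the selected nuclei and none in the marker-dense nuclei, where 7.19% and 4.79% of all measured genes were lower.

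The marker-dense nuclei were not alike among themselves. Small groups of genes were found together in the same nuclei, and a nucleus was assigned to a group when the group's genes had at least 3 UMIs in it. The groups were chosen after the values had been seen, so they are described and not tested, and deeper nuclei reach 3 UMIs more easily. The first group, pho-11 (an acid phosphatase), math-4, C49C8.5, C49A9.5, oac-31 and the zinc finger gene tlp-1, was present in 171 of 754 nuclei (22.7%), whose median depth was 3187 UMIs beside 1901 in nuclei without it. The second, tag-10, the homeobox gene ttx-1, the chloride channel gene clh-3 and T05E12.3, was present in 63 nuclei (8.36%), with a median depth of 2922 UMIs beside 2002. A further group, the AP-1 gene jun-1, the potassium channel gene kqt-3, the phytochelatin synthase gene pcs-1 and rfip-1, was present in 466 nuclei (61.8%), with a median depth of 2658.5 UMIs beside 1444.5. The groups overlapped: 20 nuclei held the pho-11 and tag-10 groups, which is 11.7% of the pho-11 and 31.7% of the tag-10 nuclei, both the pho-11 and jun-1 groups were held by 69.6% of the pho-11 and 25.5% of the jun-1 nuclei, and 46 nuclei held the tag-10 and jun-1 groups, 73.0% of the tag-10 and 9.87% of the jun-1 nuclei.

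Genes outside a group also differed with it. Except for T05E12.6 and Y75B8A.28, those named here were kept only if all 4 libraries had the same direction. That shared direction is therefore part of the choice. The tag-10 group rests on few nuclei in some libraries, 5 in ent-1KO and 12 in ctrl. Unless a library is named, the levels below are pooled over the 4 libraries. The ent-1KO;ent-2KD nuclei, which were the most numerous and the deepest in each group, weigh most in them. With the pho-11 group, F47F2.1 measured 335 CPM beside 15.6 in nuclei without it, B0035.13 measured 768 beside 91.3, and ech-8, an enoyl-CoA hydratase, 194 beside 21.9. R193.2 was the clearest gene on the other side, at 82.5 CPM beside 506. With the tag-10 group, the lectin clec-160 measured 178 CPM beside 9.41, nspg-8 360 beside 48.0 and the saposin-like spp-2 683 beside 152, while ugt-65 measured 10.7 beside 111, T05E12.6 644 beside 1954 and Y75B8A.28 1143 beside 3359. nspg-8 and Y75B8A.28 also differed between ent-2KO and ctrl, in the same directions. Within ent-2KO, nspg-8 measured 1768 CPM with the tag-10 group beside 139 without it, and Y75B8A.28 91.5 beside 1389. Within ent-1KO;ent-2KD the values were 228 beside 31.8 and 1265 beside 3595. Without the nuclei of this group the log2 ratio of ent-2KO to ctrl was 1.80 for nspg-8, -1.71 for Y75B8A.28 and -2.23 for oac-6. With the jun-1 group, mnk-1 measured 3235 CPM beside 374, the phosphodiesterase gene pde-4 510 beside 53.5 and the trehalose synthesis gene tps-2 1703 beside 317.

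**Figure D5:**
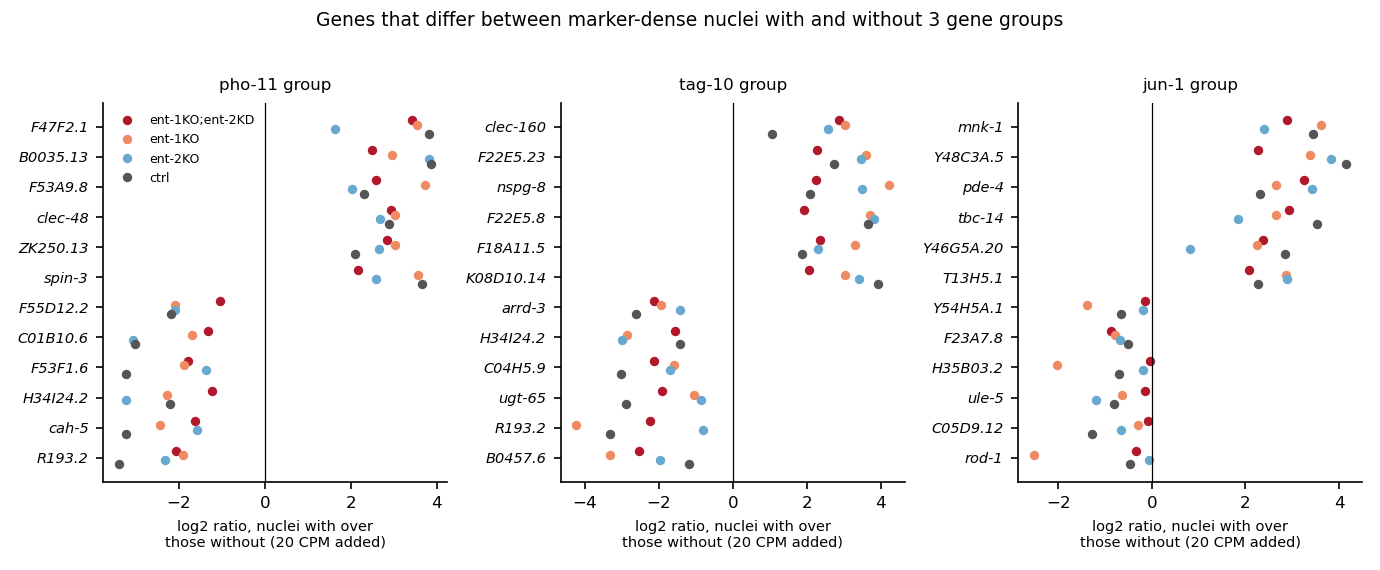
Log2 ratio of the level in marker-dense nuclei with a gene group to the level in those without it, 1 point per library, for genes outside the 3 groups. The genes shown were kept because all 4 libraries had the same direction. Among them, F47F2.1 is higher with the pho-11 group, clec-160 with the tag-10 group and mnk-1 with the jun-1 group.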

How the data were processed

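The authors generated 10x 3′ single-nucleus libraries and deposited, per the file headers, raw UMI counts per gene and barcode from Cell Ranger 6.1.2 (the submitters' processing notes name Cell Ranger 6.0 and Seurat), with no normalization. All 46926 gene IDs matched the Ensembl WBcel235 annotation, used for names, positions and spans. No nucleus was removed as a doublet and no free RNA was subtracted except in alternatives. Barcodes per library numbered 11666 to 14935, with 21009254 to 32714922 UMIs and at least 500 UMIs each, and the deepest nucleus held 3.16 to 8.07% of the UMIs of a library's selected nuclei.

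Counts were summed over the selected nuclei of a library and scaled to CPM. Log2 ratios used 0.5 UMIs added, with exact conditional intervals at the 95% level. Shares have exact Clopper-Pearson and levels exact Poisson intervals. Selected nuclei, markers and all 31 gene lists were chosen with earlier results of these data known. Genes named were the rule markers and ENT genes, for ent-1KO;ent-2KD against ctrl the 10 furthest in each direction with a UMI in all 4 libraries and beyond the spread of the other 3, the 5 furthest in each direction in the other comparisons, the 2 most abundant and the outermost ratios of each list, the 15 leading genes, and the 10 furthest on each side against ribosomal-rich nuclei. The gene groups and the genes named with them were chosen after their values were seen.

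Alternatives changed the ribosomal limit, the marker limit, the marker set, doublets (highest Scrublet scores, 0.8% per 1000 nuclei), depth, scaling, the free RNA subtracted, the minimum counts and the UMIs added. Marker-dense nuclei, a mean of at least 50 CPM and nuclei of up to 20000 UMIs were added after the data were seen. Python 3.11.15, numpy 2.4.6, scipy 1.17.1, pandas 2.3.3, scanpy 1.11.5 and matplotlib 3.10.9 were used. The ratio procedure was also run on simulated summed counts with counting error only. That run does not cover variation between nuclei or between cultures.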

Additional observations from a re-analysis of the deposited data

Results flagged for a closer look

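Only the named genes were searched for opposite directions between sets of nuclei. In 5 cases among them the selected or marker-dense nuclei had 1 direction, and the nuclei with fewer than 4 markers the opposite direction. Both ratios were past the 2-fold limit. Over all genes, 6 that were lower in both selected and marker-dense nuclei against ctrl were higher in the nuclei with fewer markers. Against ent-1KO there were 7. The differences between these sets of nuclei were not tested. In ent-1KO;ent-2KD against ctrl, T24B8.4 had a log2 ratio of -1.38 in the marker-dense nuclei and 1.56 in the nuclei with fewer markers, and ampd-1, AMP deaminase, had -1.34 and 1.29. In ent-1KO;ent-2KD against ent-1KO, K09F6.9 had -1.16 in the selected nuclei and 1.13 in those with fewer markers, atic-1 of purine synthesis -1.14 and 1.86, and the nucleoside phosphorylase pnp-1 -1.34 and 1.04. ampd-1, atic-1 and pnp-1 were looked at because they belong to the purine list.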

How the results depend on the processing

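No paired analysis was possible because each condition is 1 library, and for the same reason no library could be left out. The share of selected nuclei (4.49% in ent-1KO;ent-2KD, 1.58% in ent-1KO, 1.53% in ent-2KO, 1.43% in ctrl) became 2.995, 1.16, 1.26 and 1.16% in the same order at a ribosomal limit of 10%, 8.89, 2.83, 2.42 and 2.47% with at least 3 markers, 2.35, 0.891, 0.757 and 0.789% with at least 6, 6.81, 2.85, 2.26 and 2.46% with at least 2 of 7 markers, 1.35, 0.629, 0.571 and 0.686% after thinning to 500 UMIs and 2.34, 1.23, 1.11 and 1.07% for marker-dense nuclei. In ent-1KO;ent-2KD it was 5.38% at a limit of 20% and 3.73% with high doublet scores removed. ent-1KO;ent-2KD had the highest share under each of these.

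For ent-1KO;ent-2KD against ctrl, the 859 higher genes became 358 after thinning, 441 in marker-dense nuclei, 497 in nuclei with germline transcripts at or below the median, 353 in nuclei of 1000 to 4000 UMIs, 345 at a minimum of 200 UMIs, 362 with 5 UMIs added and 192 at a mean of at least 50 CPM. The 474 lower genes became 715 with at least 2 of 7 markers, 315 in marker-dense nuclei, 295 at 1000 to 4000 UMIs, 299 with free RNA subtracted, 141 at 200 UMIs and 238 at a mean of 50 CPM. For ent-1KO against ctrl, the 165 higher genes became 95 after thinning, 105 by germline share, 76 at 1000 to 4000 UMIs, 309 at a minimum of 20 UMIs, 27 at 200 and 94 with 5 UMIs added, and the 92 lower genes 140 with at least 6 markers, 241 at 20 UMIs and 5 at 200. For ent-2KO against ctrl, the 103 higher genes became 233 as a mean over nuclei, 167 with free RNA subtracted, 251 at 20 UMIs, 6 at 200 and 61 with 5 UMIs added, and the lower genes 75 at 1000 to 4000 UMIs, 282 at 20 UMIs and 25 at 200. For ent-1KO;ent-2KD against ent-1KO, the 980 higher genes became 281 after thinning, 360 in marker-dense nuclei, 560 by germline share, 314 at 1000 to 4000 UMIs, 573 with free RNA subtracted, 1908 at 20 UMIs, 362 at 200 and 187 at a mean of 50 CPM, and the 591 lower genes 359 with at least 6 markers, 214 after thinning, 303 in marker-dense nuclei, 237 at 1000 to 4000 UMIs, 203 at 200 UMIs and 276 at a mean of 50 CPM. Stricter minimums test fewer genes and thinning or depth windows use fewer UMIs. The causes of the other shifts were not tested. The purine median of -0.07 became 0.35 with at least 2 of 7 markers, the cause of which was not tested.

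Of 50 named ratios, 5 passed the fold rule under every alternative that gave a value (C05D9.12 and Y54G2A.41 against ent-1KO, and C05D9.12, catp-3 and ugt-41 against ctrl, all for ent-1KO;ent-2KD), and 45 were lost under at least 1. After thinning T27A1.3 changed sign to 1.47 in ent-1KO;ent-2KD and 3.09 in ent-1KO (-2.61 and -2.01 otherwise), and F15E6.3 to 1.19 in ent-2KO (-2.73 otherwise), each against ctrl, the cause of which was not tested. In 18 cases fewer than 3 UMIs were left and no value was computed. Depth limits genes of few UMIs most, and a lack of replicate libraries limits every comparison.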

Other observations

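The counts of other gene groups of the selected nuclei in ent-1KO;ent-2KD against ctrl are read against 10.5% of genes higher and 5.8% lower over all genes, and several lie near these shares. Among 29 C-type lectins, which bind sugars and include many genes of the defence against microbes, clec-85, clec-67, clec-160, clec-221 and clec-223 were higher and clec-4 and clec-66 lower, and in the marker-dense nuclei 4 of 26 were higher and 2 lower. Among 11 glutathione S-transferases, gst-4, gst-10 and gst-9 were higher and none was lower, and gst-4 and gst-10 were also higher in the marker-dense nuclei. Of 20 subunits of the V-ATPase proton pump, vha-5, vha-9 and vha-12 were higher, of which vha-12 was so in the marker-dense nuclei. Of 21 genes of stress and protein folding, the small heat shock genes hsp-16.2 and hsp-16.41 were higher and the disulfide isomerase gene pdi-1 lower, and hsp-16.41 and pdi-1 were so in the marker-dense nuclei too. Among 11 pyrimidine genes umps-1 and dhp-1 were higher and cdd-2 lower, and of 7 measured in the marker-dense nuclei umps-1 was higher. Of the 12 genes of the mitochondrial genome ctc-1, ctc-3 and nduo-5 were higher in the selected nuclei, and none in the marker-dense nuclei.

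Sperm transcripts, which do not come from the gut, summed to 1567 CPM in the selected nuclei of ent-1KO;ent-2KD, 705 in ent-1KO, 489 in ent-2KO and 1058 in ctrl, with 9 of 33 measured genes higher in ent-1KO;ent-2KD than in ctrl. The list summed to 898 CPM in the marker-dense nuclei of ent-1KO;ent-2KD, 301 in ent-1KO, 382 in ent-2KO and 231 in ctrl, and in the nuclei with fewer markers to 1479 CPM in ent-1KO;ent-2KD, 506 in ent-1KO, 629 in ent-2KO and 371 in ctrl. Of 6 sperm genes measured in marker-dense nuclei 5 were higher than in ctrl. Of 26 germline genes measured there 7 were lower and none was higher, where 7.64% of all measured genes were higher and 5.45% lower. What the sperm transcripts in these nuclei come from was not tested.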
